A study of Homo sapiens with 6 samples.

Results

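The genes described here encode the machinery that licenses DNA replication origins and runs the replication fork. They were chosen as the 50 symbols of a fixed list, from the origin recognition complex and the MCM helicase to the sliding clamp, the replicative polymerases, chromatin assembly and nucleotide supply. All 50 were found among the 26490 gene symbols of the deposited count table, and all 50 had enough reads to be tested, within a total of 13832 tested genes. The study compared SW403 cells, an established human colon adenocarcinoma line, with normal and with lowered expression of IRS2, the insulin receptor substrate that links the insulin and IGF receptors to PI3 kinase signalling. There were 3 libraries of each kind, sequenced as bulk RNA. The 3 control libraries carry the names NS in the description and WT as genotype. The 3 others carry the name IRS2KO in the description and knockdown elsewhere in the labels, and are called knockdown libraries below. All 6 cultures were grown for 24 h in DMEM with 10% fetal bovine serum and received no treatment, and each library was built from 1000 ng of total RNA. How IRS2 was lowered, whether the knockdown cells are 1 clone or a pool, and whether the 3 cultures of a group were separate passages are not given in the labels, so p-values measure only the spread between these cultures.

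Replication is licensed when the origin recognition complex, with CDC6 and CDT1, loads the ring-shaped MCM helicase onto DNA as cells leave mitosis and pass through G1. In S phase, CDC45 and the GINS complex join the MCM ring to form the active helicase, and the clamp PCNA, set on DNA by the RFC loader, tethers the polymerases. Geminin, encoded by GMNN, binds CDT1 and blocks a second round of loading. Many of these genes are known targets of E2F transcription factors and peak in G1 and S phase, whereas genes of mitosis peak later, through the B-MYB and FOXM1 programme.

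All 3 knockdown libraries (14329348 to 18114656 counts) were deeper than all 3 control libraries (11816973 to 12585013 counts). IRS2 itself stood at 32.1, 34.6 and 31.8 CPM (counts scaled to library size with trimmed-mean factors) in the control libraries and at 13.1, 12.4 and 12.1 in the knockdown libraries, a fall of 61.9% (log2 fold change -1.39 ± 0.07 SE, edgeR adjusted p = 3.12e-11). The epithelial keratins KRT8, KRT18 and KRT19, the adhesion molecule EPCAM, the microvillus protein VIL1 and the intestinal factor CDX2 were present in every library. Of these KRT19 fell by 28.0% (edgeR adjusted p = 4.35e-08) and EPCAM fell by 13.6% (edgeR adjusted p = 0.00581), CDX2 rose by 10.1% (edgeR adjusted p = 0.0148) and the others did not pass. The part of these shifts in the results below was not tested. Of the other colon markers, KRT20 and CDX1 were at 0, and CDH1 and CDH17 stayed under 1 CPM, in all 6. Summed over 10 colon epithelial markers the level was 2504 to 2609 CPM in control and 2383 to 2497 CPM in knockdown libraries. Markers of leukocytes summed to at most 3.34 CPM and those of endothelium to at most 0.871 CPM in any library. The 6 fibroblast markers summed to 8.85 to 27.3 CPM in control and 5.86 to 7.41 CPM in knockdown libraries, the highest sum being that of control replicate 1.

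Replication genes moved little and mostly down. At an edgeR adjusted p under 0.05, 19 of the 50 genes were lower in the knockdown (38%), 2 were higher (4%) and 29 did not pass. Over all tested genes 38.5% passed, 19.3% higher and 19.2% lower. The share of replication genes that fell was thus above the share of all genes, and the share that rose was below it. Their median log2 fold change was -0.07, with a range from -0.30 to 0.12, against -0.00 for all tested genes. The largest fall was 19.0%. In 26 of the 50 all 3 knockdown libraries lay below all 3 control libraries, which held for 23.9% of all tested genes. In 7 they all lay above, against 23.7% of all genes, and in 17 the groups overlapped. With 3 libraries a group, an exact two-sided permutation test of a single gene cannot go below p = 0.1, so the calls rest on the fit across all genes. In bulk RNA, fewer cells in S phase and less transcript per cell cannot be told apart.

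**Figure D1:**
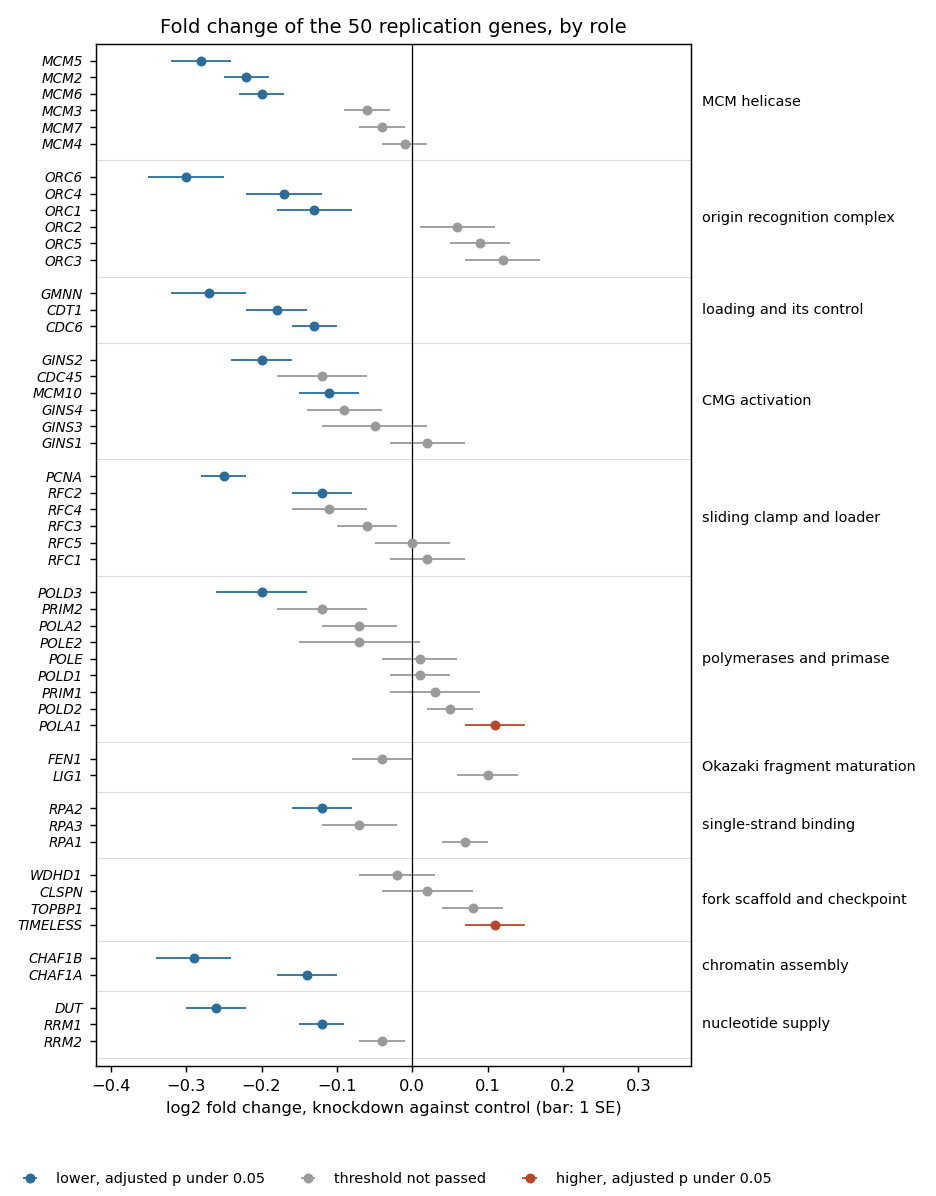
Log2 fold change of each of the 50 replication genes, knockdown against control (horizontal axis), grouped by role, with bars of 1 SE. Blue points are the 19 genes lower at an adjusted p under 0.05, red points the 2 higher and grey points the 29 that did not pass. The points run from -0.30 to 0.12, and there are blue ones in every role except fragment maturation and the fork scaffold.

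The count of lower genes was 15 to 18 (30% to 36%) when any 1 library was left out, against 15.2% to 18.6% of all tested genes. It was 18 (36%) when all libraries were thinned to the depth of the smallest, against 17.9% of all tested genes. The Wald test of DESeq2 called 12 lower and 0 higher. Over the 19882 genes with any read it called 8.26% lower and 9.7% higher. These shares are not over the 13832 tested genes, and genes without an adjusted p count as not called. The count of higher genes moved more, and was 0 without control replicate 1 or without knockdown replicate 1, 1 without control replicate 2 or knockdown replicate 2, and 5 without knockdown replicate 3. With any 1 library left out, 15.6% to 19% of all tested genes were higher. When length and GC content of the transcripts were corrected without centring on all genes, 9 replication genes were higher (18%) and 14 lower (28%). Over all genes the calls were then 4003 higher (28.9%) and 2064 lower (14.9%). The centred correction gave 19 lower genes, of which 18 were also lower without it, and 4 higher, ORC3, ORC5, POLD2 and LIG1. Over all tested genes it called 19.7% lower and 21.4% higher. The 2 genes higher without it, POLA1 and TIMELESS, lost their calls (edgeR adjusted p = 0.065 and 0.123). Of the 19 genes lower without any correction, 11 kept their call under all 19 alternatives. These were MCM2, MCM5, MCM6, ORC6, CDT1, GMNN, GINS2, PCNA, CHAF1B, RRM1 and DUT.

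The promoters are shown first, because E2F binding elements are the best known shared feature of these genes. RefSeq promoters (GRCh38.p14, 250 bases before to 50 bases after each start) were matched by symbol for 44 of the 50 genes. GINS4, MCM4, MCM5, POLD3, RPA2 and RPA3 had no entry. Each was searched on both strands for the 4 words TTTCGCGC, TTTGGCGC, TTTCCCGC and TTTGCCGC, which are forms of the E2F element and may overlap one another. The stretches below, written 5′ to 3′ in the direction of the gene, hold the 160 bases before the start, with E2F words in capitals. MCM6, PCNA, GMNN, GINS2 and CDT1 are printed as genes that fell and hold a word, POLA1 as one that rose and holds one, and ORC6 as the gene with the largest fall, which holds none.
MCM6: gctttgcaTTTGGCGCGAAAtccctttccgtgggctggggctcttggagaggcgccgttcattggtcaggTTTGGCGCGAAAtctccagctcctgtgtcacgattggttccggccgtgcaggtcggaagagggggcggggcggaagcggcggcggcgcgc
PCNA: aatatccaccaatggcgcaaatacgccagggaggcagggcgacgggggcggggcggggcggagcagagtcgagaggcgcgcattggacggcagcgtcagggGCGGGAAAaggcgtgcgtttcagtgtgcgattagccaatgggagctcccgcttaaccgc
GMNN: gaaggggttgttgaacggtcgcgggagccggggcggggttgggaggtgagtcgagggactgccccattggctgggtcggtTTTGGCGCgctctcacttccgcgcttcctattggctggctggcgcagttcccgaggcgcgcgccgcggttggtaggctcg
GINS2: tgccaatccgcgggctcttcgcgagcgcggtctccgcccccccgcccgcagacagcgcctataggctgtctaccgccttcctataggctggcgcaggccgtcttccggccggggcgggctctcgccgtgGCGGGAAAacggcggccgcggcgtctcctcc
CDT1: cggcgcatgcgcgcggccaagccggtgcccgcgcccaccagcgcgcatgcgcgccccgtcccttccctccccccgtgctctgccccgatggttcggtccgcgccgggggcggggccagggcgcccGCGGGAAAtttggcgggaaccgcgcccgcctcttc
POLA1: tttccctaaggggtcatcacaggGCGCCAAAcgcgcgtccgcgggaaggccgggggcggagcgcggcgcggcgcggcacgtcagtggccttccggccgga
ORC6: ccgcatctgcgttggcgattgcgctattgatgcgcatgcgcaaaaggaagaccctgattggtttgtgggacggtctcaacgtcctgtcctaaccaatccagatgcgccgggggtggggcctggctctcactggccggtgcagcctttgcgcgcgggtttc
The MCM6 stretch is chr2:135876444-135876603 on the minus strand and holds 4 words in 2 copies of an overlapping pair, one word on each strand. PCNA (chr20:5126623-5126782, minus) and GMNN (chr6:24775253-24775412, plus) hold 1 word each in the promoter shown, which is one of 2 listed for each gene. GINS2 (chr16:85688955-85689114, minus) and CDT1 (chr16:88803629-88803788, plus) hold 1 word each within the 100 bases before the start. For POLA1 (chrX:24693758-24693857, plus) only bases 160 to 61 before the start are shown, with 1 word. The ORC6 stretch is chr16:46689499-46689658 on the plus strand.

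An E2F word was present in a promoter of 21 of the 44 matched replication genes (47.7%), against 4.0% of all 27305 genes with a promoter entry and 6.7% of the 10818 tested genes with one. Counted by promoter, 3.31% of all 35116 entries held one. The 21 genes were MCM2, MCM3, MCM6, MCM7, ORC3, CDC6, CDT1, GMNN, GINS1, GINS2, GINS3, PCNA, RFC3, POLA1, POLA2, POLE, POLE2, LIG1, TOPBP1, CLSPN and DUT. They held 28 words, of which 18 began within the 100 bases before the start and 4 after it. With a word, 8 of 21 genes fell and 1 rose (median log2 fold change -0.06). Without one 8 of 23 fell and 1 rose (median -0.04), so the shares that fell were 38.1% and 34.8%, a difference that was not tested. Among all 721 tested genes with a word, 22.7% were lower and 16.2% higher, against 19.1% and 20.1% of the 10097 without.

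**Figure D2:**
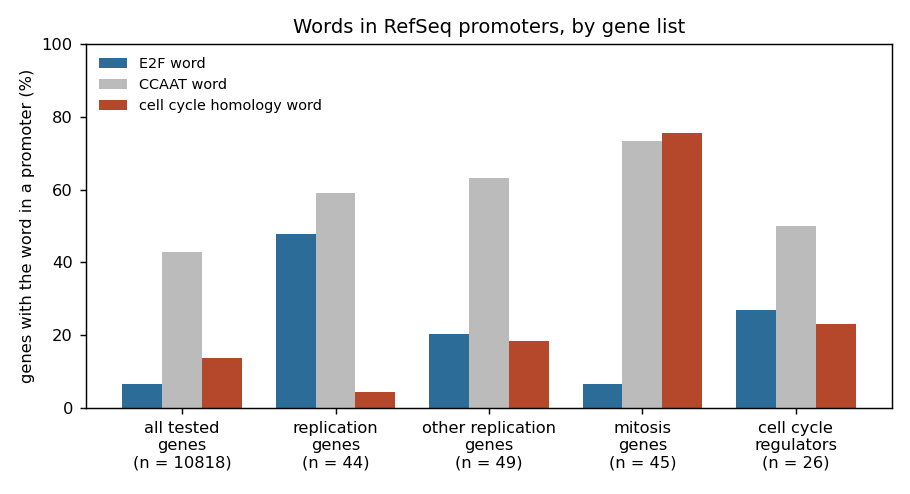
Share of genes (vertical axis, %) with at least 1 E2F word, CCAAT word or TTTGAA word in a listed promoter, for all tested genes, replication genes, other replication genes, mitosis genes and cell cycle regulators. E2F words stand at 47.7% of replication genes and 6.7% of mitosis genes, and TTTGAA at 4.5% and 75.6%.

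The CCAAT word, bound by NF-Y, was found in 26 replication genes (59.1%) and in 42.9% of tested genes. TTTGAA, the core of the cell cycle homology element read by the DREAM and B-MYB complexes, was found in 2 replication genes (4.5%), DUT and RRM1, and in 34 of 45 matched mitosis genes (75.6%), against 13.6% of tested genes. By promoter entry the shares over the whole table were 34.61% for CCAAT and 15.16% for TTTGAA. Of mitosis genes, 3 held an E2F word (6.7%), CDK1, CENPA and NUSAP1. A match of letters is a description of these windows and not a bound site.

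The MCM helicase, whose 6 subunits form the ring that unwinds DNA, had 3 subunits that fell, MCM2, MCM5 and MCM6. That was 50% of the 6, against 19.2% of all tested genes. MCM2 stood at 302, 311 and 305 CPM in control replicates 1, 2 and 3 and at 264, 261 and 264 CPM in the knockdown replicates. Its mean went from 306 ± 4.62 to 263 ± 1.62 CPM (SD, n = 3), a fall of 14.1% (log2 fold change -0.22 ± 0.03, edgeR adjusted p = 1.13e-05). MCM5 was at 176, 178 and 171 CPM in controls and 139, 147 and 146 CPM in the knockdown, a fall of 17.8% (-0.28 ± 0.04, edgeR adjusted p = 3.75e-06). For both genes every knockdown library lay below every control library by more than the spread within either group. MCM6 was at 346, 367 and 365 CPM in controls and 313, 314 and 315 CPM in the knockdown, a fall of 12.6% (-0.20 ± 0.03, edgeR adjusted p = 6.68e-05). Its knockdown libraries agreed within 1.24 CPM (SD, n = 3) and again all lay below the controls.

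The other 3 subunits did not pass the test. MCM3 stood at 398, 412 and 417 CPM in controls and 391, 392 and 390.1 CPM in the knockdown (log2 fold change -0.06 ± 0.03, edgeR adjusted p = 0.0983). The groups did not overlap, but by a small margin. MCM4 was at 579.8, 609.9 and 592 CPM in controls and 581, 595 and 596 CPM in the knockdown (-0.01 ± 0.03, edgeR adjusted p = 0.856), with overlapping groups. MCM7 was at 1176, 1150.4 and 1114 CPM in controls and 1085, 1116 and 1145 CPM in the knockdown (-0.04 ± 0.03, edgeR adjusted p = 0.297), also overlapping. MCM3 passed under 5 of the 19 alternatives and MCM7 under 1, the scaling by library size alone, and both stayed below 0 in each. Per kilobase of transcript, MCM7 had by far the highest level of the 6, at 465 CPM per kb in controls and 452 in the knockdown, and MCM5 the lowest, at 50.6 and 41.6. MCM4 and MCM3 followed MCM7, at 146 and 133 CPM per kb in controls, then MCM6 at 95.8 and MCM2 at 89.2, and the order was the same in the knockdown. The subunits that fell were thus the 3 with the lowest levels per length. MCM7 shares exons on the opposite strand with AP4M1 and hosts MIR93, and the labelled kit is not stated to mark strand, so reads from these genes cannot be told apart.

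**Figure D3:**
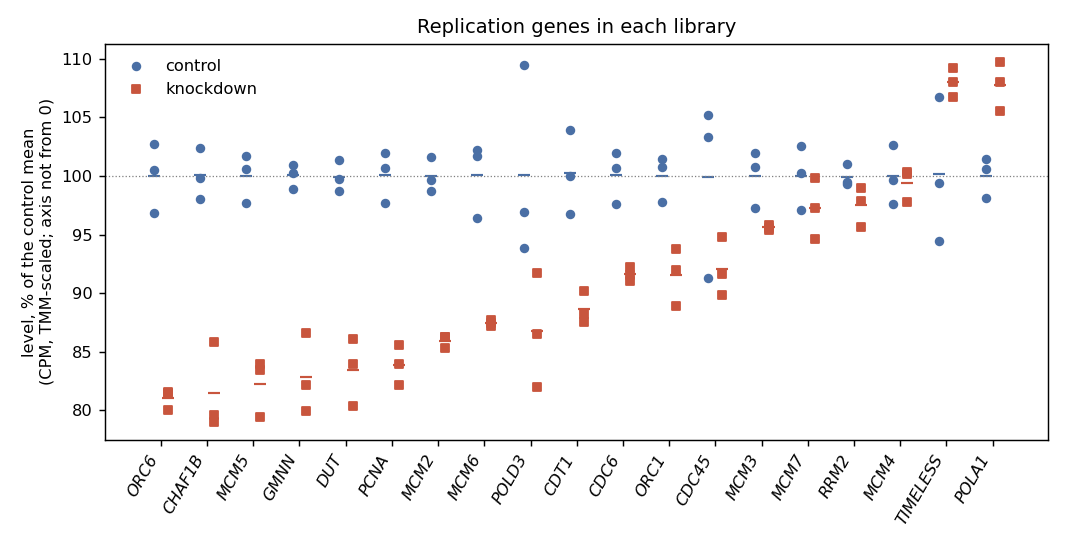
Level of 19 replication genes in each library, as % of that gene's control mean (vertical axis, not starting at 0), ordered by fold change. Circles are the 3 control and squares the 3 knockdown libraries, with a line at each group mean. Knockdown squares lie clear of the circles for ORC6, CHAF1B, MCM5, GMNN, DUT, PCNA, MCM2 and MCM6 and among them for MCM4, MCM7 and CDC45.

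The 6 subunits of the origin recognition complex, which marks origins, moved in both directions. Past the threshold, 3 fell (50%, against 19.2% of all tested genes) and 0 rose (against 19.3%). ORC6, its smallest subunit, had the largest fall of all 50 genes. It was at 64.8, 63.4 and 61.1 CPM in controls and 51.4, 51.5 and 50.5 CPM in the knockdown, means of 63.1 ± 1.84 and 51.1 ± 0.595 CPM (SD, n = 3), a fall of 19.0% (log2 fold change -0.30 ± 0.05, edgeR adjusted p = 3.27e-05). ORC4 fell with a log2 fold change of -0.17 ± 0.05 (edgeR adjusted p = 0.0152), and shares exons with ACVR2A and MBD5 on the opposite strand. ORC1, the subunit that comes and goes with the cell cycle, was at 50.4, 50.1 and 48.6 CPM in controls and 44.2, 46.6 and 45.7 CPM in the knockdown (-0.13 ± 0.05, edgeR adjusted p = 0.0473). All 3 had separate groups with the knockdown below, which held for 23.9% of all tested genes. The calls differed in how firmly they held. ORC1 lost its call under 14 of 19 alternatives, including the omission of any 1 library, with edgeR adjusted p from 0.0601 without control replicate 3 to 0.151 without knockdown replicate 1, and also has 1 named pseudogene. ORC4 lost its call without control replicate 3 (edgeR adjusted p = 0.071), knockdown replicate 1 (0.0696) or knockdown replicate 2 (0.0525), and under DESeq2. The ORC4 call was also lost under the length and GC correction that is not centred (edgeR adjusted p = 0.191).

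ORC2, ORC3 and ORC5 leaned the other way without passing the test. ORC3 was at 57.9, 58.9 and 59.6 CPM in controls and 66.0, 63.2 and 62.1 CPM in the knockdown (log2 fold change 0.12 ± 0.05, edgeR adjusted p = 0.0501). It passed under 7 of the 19 alternatives, among them the omission of knockdown replicate 3 (edgeR adjusted p = 0.0368). ORC5 had a log2 fold change of 0.09 (edgeR adjusted p = 0.0897) and ORC2 of 0.06 (edgeR adjusted p = 0.295). In each of these 3 genes all knockdown libraries lay above all controls, which held for 23.7% of all tested genes. None of the 6 subunits thus had overlapping groups, whereas 7248 of the 13832 tested genes did.

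All 3 genes of MCM loading and its control fell, against 19.2% of all tested genes. CDC6, the ATPase that joins the origin complex, was at 157, 150.3 and 155 CPM in controls and 141, 140.2 and 142 CPM in the knockdown (log2 fold change -0.13 ± 0.03, edgeR adjusted p = 0.00654). CDT1, which escorts the helicase to origins, was at 159, 148 and 153 CPM in controls and 135, 138 and 134 CPM in the knockdown, means of 153 ± 5.14 and 135 ± 1.89 CPM (SD, n = 3; -0.18 ± 0.04, edgeR adjusted p = 0.000638). GMNN, which encodes its inhibitor geminin, was at 71.5, 72.5 and 73.0 CPM in controls and 59.4, 57.8 and 62.6 CPM in the knockdown, means of 72.3 ± 0.74 and 60 ± 2.45 CPM (SD, n = 3; -0.27 ± 0.05, edgeR adjusted p = 0.000107). In all 3 the knockdown libraries lay below the controls, which held for 23.9% of all tested genes. The loader CDT1 and its inhibitor moved the same way. CDT1 and GMNN each hold a single E2F word in the stretches printed above. CDC6 lost its call only under the length and GC correction that is not centred (edgeR adjusted p = 0.0853).

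Of the 6 genes of helicase activation, 2 fell (33.3%, against 19.2% of all tested genes). GINS2, a subunit of the GINS ring, was at 72.9, 74.2 and 70.4 CPM in controls and 62.5, 62.2 and 64.9 CPM in the knockdown (log2 fold change -0.20 ± 0.04, edgeR adjusted p = 0.00144). Its exons overlap those of GSE1 on the opposite strand. The other GINS genes did not pass, with log2 fold changes of 0.02 for GINS1, -0.05 for GINS3 and -0.09 for GINS4. CDC45, which joins GINS on the helicase, was at 55.8, 49.3 and 56.8 CPM in controls and 49.5, 51.2 and 48.5 CPM in the knockdown (-0.12 ± 0.06, edgeR adjusted p = 0.105). The groups overlapped through control replicate 2, and without that library CDC45 passed (-0.17, edgeR adjusted p = 0.023). It did not pass when any of the other libraries was left out, and without control replicate 3 its log2 fold change was -0.07 (edgeR adjusted p = 0.376). MCM10, needed for the helicase to start, fell (-0.11 ± 0.04, edgeR adjusted p = 0.038) from 106 ± 2.63 to 98.6 ± 2.39 CPM (SD, n = 3). Its call was lost under 9 of 19 alternatives, including the omission of control replicate 2 (edgeR adjusted p = 0.187), control replicate 3 (0.0806), knockdown replicate 1 (0.136) or knockdown replicate 3 (0.0623).

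At the fork, 2 of the 6 genes of the clamp and its loader fell (33.3%, against 19.2% of all tested genes). PCNA was at 565, 558 and 541 CPM in controls and 455, 465 and 474 CPM in the knockdown, means of 554 ± 12.3 and 465 ± 9.41 CPM (SD, n = 3). This fall of 16.2% had the smallest adjusted p of the 50 genes (log2 fold change -0.25 ± 0.03, edgeR adjusted p = 1.48e-06). Per kilobase PCNA was nearly level with MCM7 in controls, at 435 CPM per kb, and went to 364. It has 3 named pseudogenes, so its counts may include or lose reads shared with them. Of the 5 loader subunits RFC2 fell (-0.12 ± 0.04, edgeR adjusted p = 0.0121), from 156 ± 3.42 to 143 ± 4.79 CPM (SD, n = 3). Its call was lost without control replicate 1 (edgeR adjusted p = 0.0521), without knockdown replicate 2 (0.0808) and under DESeq2. The log2 fold changes of the others were 0.02 for RFC1, -0.06 for RFC3, -0.11 for RFC4 and 0.00 for RFC5.

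Of the 9 genes of the polymerases and primase, 1 rose, 1 fell (11.1%, against 19.2% of all tested genes) and 7 did not pass. POLA1, the catalytic subunit of the polymerase that starts each strand, rose from 118, 122 and 121 CPM in controls to 132, 127 and 129.9 CPM in the knockdown (log2 fold change 0.11 ± 0.04, edgeR adjusted p = 0.024). The groups did not overlap. The call was lost under 8 of 19 alternatives, including the omission of control replicate 1 (edgeR adjusted p = 0.0829) or knockdown replicate 1 (0.0758). The centred length and GC correction was another of them (edgeR adjusted p = 0.065). POLD3, an accessory subunit of polymerase delta, fell from 41.0, 46.3 and 39.7 CPM to 34.7, 38.8 and 36.6 CPM (-0.20 ± 0.06, edgeR adjusted p = 0.0151). Its groups were apart by less than the spread among controls, and without control replicate 2 (edgeR adjusted p = 0.149) or knockdown replicate 1 (0.0671) the call was lost. The POLD3 call was also lost under DESeq2 (DESeq2 adjusted p = 0.0997). The catalytic subunits of the leading and lagging strand polymerases did not pass the test: POLE was at 137 ± 3.16 and 138 ± 13.8 CPM (SD, n = 3) and POLD1 at 205 ± 2.89 and 207 ± 8.32 CPM. POLA2, PRIM1, PRIM2, POLD2 and POLE2 had log2 fold changes from -0.12 to 0.05 and did not pass.

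Among the proteins that join fragments, coat single strands and hold the fork, few passed. The flap nuclease FEN1 (log2 fold change -0.04) and the ligase LIG1 (0.10 ± 0.04, edgeR adjusted p = 0.0544) did not, although LIG1 passed under 6 of 19 alternatives and all its knockdown libraries lay above the controls. RPA2, the middle subunit of the single-strand binding complex, fell (-0.12 ± 0.04, edgeR adjusted p = 0.0166), while RPA1 (0.07) and RPA3 (-0.07) did not pass. RPA2 has 3 named pseudogenes and lost its call under 7 of 19 alternatives, including the omission of control replicate 2 (edgeR adjusted p = 0.0705), control replicate 3 (0.0502) or knockdown replicate 2 (0.0613). TIMELESS, a fork protection factor, was at 162, 154 and 174 CPM in controls and 176, 178 and 174 CPM in the knockdown (0.11 ± 0.04, edgeR adjusted p = 0.0397). Its groups overlapped, and its call was lost under 11 of 19 alternatives, among them the omission of control replicate 1 (edgeR adjusted p = 0.11), control replicate 2 (0.22), knockdown replicate 1 (0.0702) or knockdown replicate 2 (0.139). The TIMELESS call was also lost under the centred length and GC correction (edgeR adjusted p = 0.123). The checkpoint factors TOPBP1 (0.08) and CLSPN (0.02) and the polymerase tether WDHD1 (-0.02) did not pass.

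Chromatin assembly factor 1, which lays histones on new DNA behind PCNA, has CHAF1A and CHAF1B among the 50 genes, and both fell. Of all tested genes 19.2% fell. CHAF1B was at 51.3, 49.1 and 50 CPM in controls and 39.9, 39.6 and 43.0 CPM in the knockdown, means of 50.1 ± 1.08 and 40.9 ± 1.88 CPM (SD, n = 3; log2 fold change -0.29 ± 0.05, edgeR adjusted p = 0.000178). CHAF1A fell by less (-0.14 ± 0.04, edgeR adjusted p = 0.00791), and under DESeq2 it missed the threshold (DESeq2 adjusted p = 0.0548). Both had separate groups with the knockdown below, which held for 23.9% of all tested genes. RBBP4, the histone-binding subunit that this factor shares with other chromatin complexes and that was listed with the regulators, fell as well (-0.11 ± 0.03, edgeR adjusted p = 0.0155), from 282 ± 9.03 to 262 ± 5.18 CPM (SD, n = 3). CHAF1B overlaps MORC3 on its own strand and CHAF1A overlaps UBXN6 on the other, so a share of their reads may be uncertain.

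Of the 3 genes of nucleotide supply, DUT and RRM1 fell (66.7%, against 19.2% of all tested genes) and RRM2 did not pass. DUT, which removes dUTP so that uracil is kept out of DNA, was at 193, 188 and 189.9 CPM in controls and 153, 159.9 and 164 CPM in the knockdown, means of 190.4 ± 2.27 and 159 ± 5.74 CPM (SD, n = 3), a fall of 16.5% (log2 fold change -0.26 ± 0.04, edgeR adjusted p = 9.11e-06). DUT has 8 named pseudogenes. RRM1, the large subunit of ribonucleotide reductase, fell from 203 ± 4.06 to 186 ± 1.94 CPM (SD, n = 3; -0.12 ± 0.03, edgeR adjusted p = 0.00553). RRM2, its small subunit and the S-phase one, was at 939.5, 941 and 956 CPM in controls and 905, 926 and 936 CPM in the knockdown (-0.04 ± 0.03, edgeR adjusted p = 0.316), 290 and 283 CPM per kb of transcript. The RRM2 groups were separate but by a margin smaller than their own spread.

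Other genes of replication, 60 taken from a list beside the 50, moved both ways. There were 17 lower (28.3%, against 19.2% of all tested genes) and 9 higher (15%, against 19.3%), and the median log2 fold change was -0.05. DESeq2 called 7 lower (11.7%, against 8.26% of genes with any read) and 7 higher (11.7%, against 9.7%). The median deviation from the control means was -0.072, -0.044 and 0.006 log2 units in knockdown replicates 1, 2 and 3, the last equal to that of control replicate 3, and the median fold change was -0.015 without knockdown replicate 1 and -0.028 without knockdown replicate 2. Among those that fell was DTL, which targets CDT1 for destruction on PCNA (-0.30, edgeR adjusted p = 1.68e-05). The histone chaperone NASP (-0.22, edgeR adjusted p = 2.33e-05) and the anaphase complex inhibitor FBXO5 (-0.23, edgeR adjusted p = 0.00125) also fell. Those that rose included the topoisomerases TOP2A (0.25, edgeR adjusted p = 4.45e-06) and TOP1 (0.19, edgeR adjusted p = 3.57e-05), the dNTP hydrolase SAMHD1 (0.24, edgeR adjusted p = 6.6e-05) and DBF4, the activator of the CDC7 kinase that fires origins (0.18, edgeR adjusted p = 0.000318). TOP2A is also a gene of mitosis and peaks late in the cycle. The count of lower genes fell to 10 (16.7%) without control replicate 2 or knockdown replicate 2, against 15.2% and 15.4% of all tested genes. It fell to 9 (15%, against 16.3%) without knockdown replicate 1. Under the length and GC correction that is not centred it was 11 (18.3%, against 14.9%), with 15 higher (25%, against 28.9%).

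The genes of mitosis leaned the other way. Of 53 measured, 28 were higher in the knockdown (52.8%, against 19.3% of all tested genes) and 5 were lower (9.43%, against 19.2%), and the median log2 fold change was 0.11. Those that rose included CDC25B, the phosphatase that starts entry into mitosis, from 237 ± 4.43 to 368 ± 7.24 CPM (SD, n = 3; 0.63 ± 0.03, edgeR adjusted p = 1.98e-11), and the kinase AURKA, from 197 to 253 CPM (0.37, edgeR adjusted p = 3.99e-08). KIF23, a motor of the central spindle, rose from 153 to 205 CPM (0.42, edgeR adjusted p = 7.11e-09), and ANLN, a scaffold of the contractile ring, rose as well (0.32, edgeR adjusted p = 3.18e-07). By role, 10 of 14 spindle and cytokinesis genes and 5 of 9 entry kinases and cyclins rose, and none of either fell. The 5 that fell were the kinetochore genes ZWINT (-0.39, edgeR adjusted p = 1.09e-07) and SPC24 (-0.21, edgeR adjusted p = 0.0182), the ubiquitin enzyme UBE2S (-0.37, edgeR adjusted p = 1.32e-07), the chromosomal passenger BIRC5 (-0.25, edgeR adjusted p = 1.45e-05) and the checkpoint gene MAD2L1 (-0.11, edgeR adjusted p = 0.0243), the last named after its value was seen. SPC24 lost its call without control replicate 1 (edgeR adjusted p = 0.0757), control replicate 2 (0.0815), knockdown replicate 1 (0.0635) or knockdown replicate 2 (0.0525). It also lost its call under DESeq2 (DESeq2 adjusted p = 0.157). The lower count was 3 when control replicate 1, control replicate 2, knockdown replicate 1 or knockdown replicate 2 was left out. That was 5.66%, against 15.2% to 16.3% of all tested genes.

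**Figure D4:**
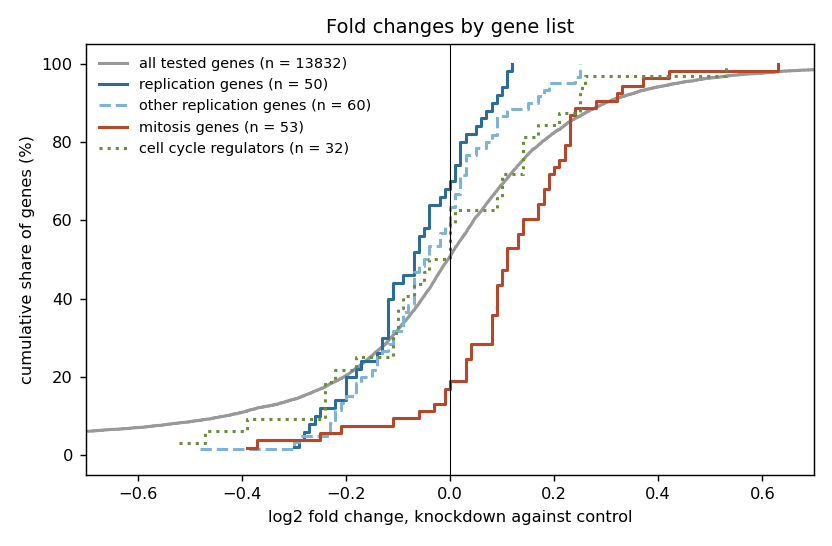
Cumulative share of genes (vertical axis, %) by log2 fold change, knockdown against control (horizontal axis). Curves are drawn for all tested genes, replication genes, other replication genes, mitosis genes and cell cycle regulators. The curve of replication genes lies left of zero for most of its length (median -0.07) and that of mitosis genes right of it (median 0.11). Other replication genes have a median of -0.05 and cell cycle regulators of -0.02.

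The median difference between the lists was -0.184 log2 units, replication minus mitosis, and it ranged from -0.200 to -0.178 with any 1 library left out. Settings that rescale whole libraries move both lists alike and so leave this difference unchanged by construction. All 3 knockdown libraries showed it. The median deviation of the 50 replication genes from their control means was -0.083, -0.077 and -0.066 log2 units in knockdown replicates 1, 2 and 3, and -0.014, 0.007 and 0.006 in the control replicates. That of the mitosis genes was 0.121, 0.104 and 0.134 in the knockdown and -0.017, 0.013 and 0.015 in the controls. Summed over the 50 replication genes the level was 8789, 8842 and 8792 CPM in the control libraries and 8277, 8391 and 8505 CPM in the knockdown libraries. Summed over the mitosis genes it was 8748, 8938 and 8969.9 CPM in controls and 9712, 9733 and 9762 CPM in the knockdown. Both sums separate the groups, in opposite directions. The proliferation marker MKI67 was at 624, 694 and 759 CPM in controls and 902, 857 and 724 CPM in the knockdown (log2 fold change 0.26 ± 0.06, edgeR adjusted p = 0.00306), with overlapping groups, and it did not pass under DESeq2 (DESeq2 adjusted p = 0.108).

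**Figure D5:**
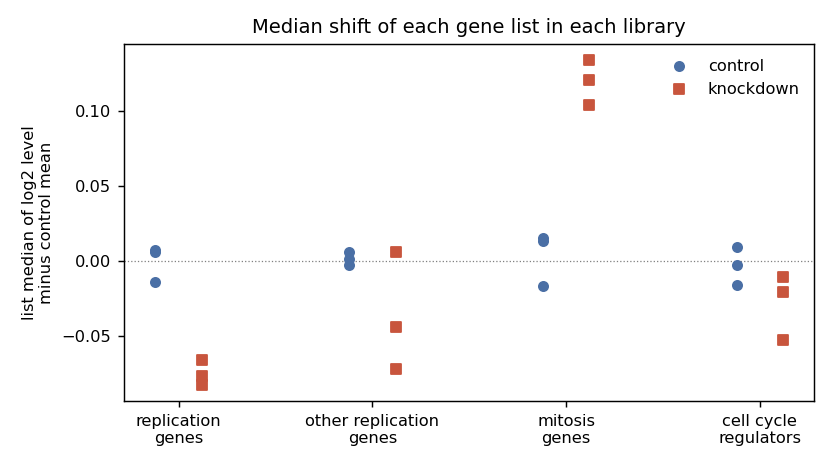
Median over each gene list of the log2 level minus the gene's control mean (vertical axis), 1 point per library, circles for control and squares for knockdown. Replication genes sit at -0.083 to -0.066 in the 3 knockdown libraries and mitosis genes at 0.104 to 0.134, while control libraries lie near 0.

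Regulators of the passage from G1 to S phase, 32 genes, had 9 lower (28.1%, against 19.2% of all tested genes), 7 higher (21.9%, against 19.3%) and a median log2 fold change of -0.02. The median gave no stable direction, at -0.051 without control replicate 1, 0.008 without control replicate 2 and 0.006 with the centred length and GC correction. E2F1, an activator of replication genes, was at 135, 122 and 126 CPM in controls and 103, 113 and 107 CPM in the knockdown (-0.24 ± 0.04, edgeR adjusted p = 0.00021), with separate groups. E2F2, another activator, fell from 29.9 to 21.0 CPM (-0.52, edgeR adjusted p = 4.18e-06), and TFDP1, their DNA-binding partner, fell too (-0.22, edgeR adjusted p = 6.88e-05). E2F3, also an activator, did not pass, at 83.0 CPM in controls and 77.5 in the knockdown (-0.10, edgeR adjusted p = 0.0666). E2F8, a repressor, rose (0.26, edgeR adjusted p = 0.00171). CCNE1, the cyclin of S-phase entry, was at 17.1, 14.5 and 16.3 CPM in controls and 11.4, 11.6 and 11.6 CPM in the knockdown (-0.47 ± 0.09, edgeR adjusted p = 0.000351), and its kinase CDK2 fell (-0.24, edgeR adjusted p = 0.000126). CCNE2 fell with overlapping groups (-0.24 ± 0.08, edgeR adjusted p = 0.0189), a call lost without control replicate 1 (edgeR adjusted p = 0.05), control replicate 3 (0.141), knockdown replicate 1 (0.0519) or knockdown replicate 2 (0.0858). The CCNE2 call was also lost under DESeq2 (DESeq2 adjusted p = 0.11) and the length and GC correction that is not centred (edgeR adjusted p = 0.0997). The CDK inhibitor CDKN1B rose from 62.6 ± 1.26 to 90.0 ± 5.01 CPM (SD, n = 3; 0.53 ± 0.05, edgeR adjusted p = 5.89e-08), CDKN2A fell (-0.39, edgeR adjusted p = 4.92e-06) and CDKN1A did not pass (-0.04, edgeR adjusted p = 0.789). CCNA2, active in S phase and at entry into mitosis, rose (0.25, edgeR adjusted p = 7.6e-06), as did FOXM1, a factor of the late cell cycle programme (0.17, edgeR adjusted p = 0.000118). MYBL2, which encodes B-MYB of the same programme, fell (-0.10, edgeR adjusted p = 0.0349). Under the length and GC correction that is not centred, 9 regulators were higher (28.1%, against 28.9% of all tested genes) and 7 lower (21.9%, against 14.9%). Their median was then 0.036.

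Transcript length and gene overlap were measured beside these results. Over the 50 replication genes the log2 fold change had a Spearman correlation of 0.25 with transcript length (n = 50 genes, which are not independent), and over the 8861 genes whose mean count reached 200 it was 0.24. After the centred correction it was 0.00 in both. The trend was fitted on those 8861 genes, so for them a value near 0.00 follows from the fit. The median transcript of the 19 lower genes was 3142 bases long and that of the 29 genes that did not pass 3068 bases. The 2 higher genes had transcripts of 5158 and 5487 bases. Exons of 10 of the 50 genes (MCM7, ORC4, GINS1, GINS2, RFC4, RFC5, PRIM1, RPA1, RPA3 and CHAF1A) overlap a gene on the opposite strand that is also in the count table. Named pseudogenes exist for 10 (ORC1, PCNA, RFC3, RFC5, POLD2, FEN1, RPA2, RPA3, RRM2 and DUT). Levels of these genes are uncertain by the reads they may share. The sum of fibroblast markers was highest in control replicate 1, with COL1A1 at 15.2 CPM there and 5.70 and 5.60 CPM in the other controls. DCN and LUM did not peak in that library. COL1A1 (log2 fold change -1.15, edgeR adjusted p = 0.0029) and COL3A1 (-1.71, edgeR adjusted p = 0.0136) were lower in the knockdown. Without control replicate 1, 17 replication genes were lower (34%, against 16.3% of all tested genes) and 0 higher (against 16.4%).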

How the data were processed

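RNA of 6 SW403 cultures, 3 control and 3 with IRS2 knockdown, was analysed from the table of raw counts per gene symbol that the authors deposited. Per the submitters' processing notes the tools were STAR 2.6.1a, Salmon and DESeq2, with build hg19, with no role given for each. The annotation and strand setting are not given in the sources used here. The authors also deposited a table of normalized signal for 16213 genes, which equals the counts divided by 1 constant per library (0.84665 to 1.2535) and was used only as an alternative. Groups were taken from the labels.

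Counts were scaled by trimmed-mean (TMM) factors, genes with low counts were removed with edgeR's default filter, and the groups were compared with edgeR's quasi-likelihood test (edgeR 4.0.16 in R 4.3.3), with Benjamini-Hochberg adjustment over all 13832 tested genes and a threshold of 0.05. Alternatives used DESeq2 1.42.0, limma 3.58.1 with a pseudocount of 1 for the deposited normalized values, other scalings and filters, thinned counts, a length and GC correction, a replicate block and the omission of each library. The length and GC trend was fitted on genes whose mean count reached 200, a choice made after the data were seen. The test was checked on simulated data. Replicate pairs differed by more than counting error (chi-square per degree of freedom 1.41 to 2.78), so none was counted as 1 library.

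The members and lists were chosen with earlier results of these data known. Values in every library were to be given for the MCM2 to MCM7 genes, PCNA, CDC6, CDT1, ORC1, GMNN, CDC45, RRM2 and any other gene past the threshold among the 8 largest falls or the 8 largest rises. Of each comparison list, the 4 genes with the smallest p in each direction were named, with IRS2, E2F1, CCNE1, CCNE2, CDKN1A and MKI67. One result that this rule would name is not reported here. GINS2, ORC3, MAD2L1, RBBP4, MYBL2, E2F3 and the colon markers with a fold change were added after their values were seen. Promoters came from RefSeq (GRCh38.p14), matched by symbol. Transcript lengths and GC content came from the GENCODE annotation lifted to hg19, with the canonical transcript of each gene. Of the tested genes, 96.3% had a length. Depth ran from 11816973 to 18114656 counts, and every replication gene had at least 223 counts in each library.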

Additional observations from a re-analysis of the deposited data

How the results depend on the processing

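None of the 21 replication genes that passed changed sign over 19 alternatives. Of the 950 values of all 50 genes, 851 kept their side of the threshold, 62 lost a call and 37 gained one. The replication genes called higher numbered 0 with upper-quartile factors, library size alone, DESeq2, the replicate block or an adjusted p of 0.01. Of all genes in each fit 17%, 15.9%, 9.7% and 17.7% were higher in that order, and 1924 of 13832 at 0.01. With a mean of at least 50 counts there was 1 (2%, against 20.8% of all genes). There were 4 (8%) without the low-count filter, with limma on the deposited normalized values or with the length and GC correction, with or without the block. The shares of all genes were then 15.1%, 20.3%, 21.4% without the block and 20.8% with it. With each library left out there were 0 to 5, against 15.6% to 19% of all genes. Those called lower numbered 12 with DESeq2, which called 1643 of the 19882 genes with any read lower. With the block they numbered 17 (34%, against 17.4% of all tested genes). With each library left out, 15.2% to 18.6% of all tested genes were lower. The replication median was -0.091 with upper-quartile factors, -0.101 with library size alone and -0.049 with the length and GC correction, with or without the block. The median of the other replication genes was -0.066, -0.076, -0.019 and -0.022 under the same settings in that order, and -0.054 to -0.015 with each library left out, with 9 to 17 lower genes then and 7 under DESeq2. The mitosis median was 0.084 with library size alone, and 3 mitosis genes were lower with DESeq2 and 3 to 5 with each library left out. The regulator median was -0.051 with library size alone, 0.006 and 0.005 with the length and GC correction without and with the block, and -0.051 to 0.008 with each library left out, turning sign without control replicate 2. The length and GC correction that is not centred was chosen after seeing the data. It gave 9 higher replication genes (18%) and a median of -0.024, with 28.9% of all tested genes higher and 14.9% lower. Other replication genes had 15 higher, 11 lower and a median of 0.003, the mitosis median was 0.177 and the regulator median 0.036. Without centring, the scaling of each library is not kept. The median over all tested genes was then 0.049, against 0.006 with the centred correction. The cause of the changes between settings was not tested.

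Replicate numbers did not pair the samples. Deviations of genes from their group means correlated at 0.045, -0.011 and -0.098 between same-numbered control and knockdown libraries. With the replicate block, 17 replication genes were lower (34%, against 17.4% of all tested genes) and 0 higher (against 17.7%). ORC1, MCM10, POLA1 and TIMELESS lost their calls (edgeR adjusted p = 0.0766, 0.0614, 0.0557 and 0.0683). At this depth the median SE of a replication gene was 0.04 log2 units, which limits what smaller differences can show.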
